A study of Homo sapiens with 32 samples.

Results

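The nuclear genes of the mitochondrial respiratory chain and ATP synthase were followed across CSN5 knockdown and CSN5 inhibition in prostate cancer cells. A gene was a member if its deposited or current symbol had the form used for complex I subunits (NDUFA, NDUFAB, NDUFB, NDUFC, NDUFS or NDUFV and a number), for succinate dehydrogenase (SDHA to SDHD), for complex III (CYC1 and the UQCR symbols), for the smaller cytochrome c oxidase subunits (COX4 to COX8 symbols with at most 1 letter and 1 digit) or for ATP synthase (the ATP5 symbols). Of the 57445 gene rows in the larger tables, 158 matched and 102 reached a mean of 1 CPM (counts per M counts of the library, M standing for mega) in at least 1 group. The 102 held 78 genes for subunits of the complexes, with 37 in complex I, 4 in complex II, 9 in complex III, 11 in complex IV (NDUFA4 counted here) and 17 in complex V. The other members were ATP5IF1, the inhibitor protein of ATP synthase, 2 coding retrocopies (UQCRHL and ATP5MGL), DMAC2 and DMAC2L, which are not subunits, and 19 pseudogenes. COX4I1, another nuclear subunit of complex IV, falls outside the symbol form and is given beside the members. The muscle and testis isoforms COX6A2, COX7A1, COX8C and COX6B2 stayed under 1 CPM in every group, so the counts below rest on the isoforms COX6A1, COX6B1, COX7A2 and COX8A, and on COX7B with its testis-type relative COX7B2.

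RNA was sequenced from 4 established human prostate cancer lines, LNCaP, C4-2, 22Rv1 and PC3, in 32 libraries that form 16 groups of 2. In the knockdown experiment each line was infected with a scramble shRNA or with shCSN5, an shRNA against CSN5 (gene COPS5). In the inhibitor experiment LNCaP and 22Rv1 had DMSO or CSN5i-3 at 5 µM, PC3 had DMSO or CSN5i-3 at 10 µM, and the C4-2 libraries carry titles (C5i, NT) and descriptions that name opposite treatments, with 1 µM described for those titled NT. That C4-2 comparison is therefore expressed by title, C5i minus NT, and neither side is assigned a treatment.

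The COP9 signalosome takes the ubiquitin-like protein NEDD8 off cullin-RING ubiquitin ligases. CSN5 carries out this cleavage, and CSN5i-3 blocks it. LNCaP and its derivative C4-2 and 22Rv1 express the androgen receptor, and PC3 does not. The respiratory chain passes electrons from NADH (complex I) and succinate (complex II) through complex III to oxygen at complex IV, and the proton gradient built on the way drives ATP synthase (complex V). Complexes I, III, IV and V are assembled from subunits of the nuclear genome and of mitochondrial DNA (mtDNA), whereas complex II is wholly nuclear. Many of the nuclear genes have promoters with sites for NRF1 and for ETS family factors such as GABP.

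The 250 bases before the transcription start (RefSeq, GRCh38.p14, written 5′ to 3′ on the gene's strand) are shown for 5 members on which the results turn, chosen after their values were seen. NDUFB6 and ATP5MC1 were the members called lower in the most comparisons. NDUFB4 was called higher in as many comparisons as any member. NDUFS6 had the largest fall in PC3 with CSN5i-3, and SDHD had the largest rise there. Capitals mark the palindromic NRF1 core CGCATGCG and the ETS family word CCGGAAGT, which reads ACTTCCGG on the other strand. The windows lie at chr9:32573160-32573409 (NDUFB6, minus strand), chr17:48892537-48892786 (ATP5MC1, plus), chr3:120596086-120596335 (NDUFB4, plus), chr5:1801157-1801406 (NDUFS6, plus) and chr11:112086623-112086872 (SDHD, plus).
NDUFB6: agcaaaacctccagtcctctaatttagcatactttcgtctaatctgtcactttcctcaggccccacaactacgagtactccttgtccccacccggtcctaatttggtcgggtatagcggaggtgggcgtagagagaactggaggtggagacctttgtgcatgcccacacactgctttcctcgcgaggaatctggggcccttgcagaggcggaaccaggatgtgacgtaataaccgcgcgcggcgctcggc
ATP5MC1: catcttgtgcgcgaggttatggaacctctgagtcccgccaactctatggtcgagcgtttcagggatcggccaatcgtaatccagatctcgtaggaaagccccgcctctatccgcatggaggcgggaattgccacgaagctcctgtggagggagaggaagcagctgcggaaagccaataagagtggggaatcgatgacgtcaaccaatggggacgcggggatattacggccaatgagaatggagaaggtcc
NDUFB4: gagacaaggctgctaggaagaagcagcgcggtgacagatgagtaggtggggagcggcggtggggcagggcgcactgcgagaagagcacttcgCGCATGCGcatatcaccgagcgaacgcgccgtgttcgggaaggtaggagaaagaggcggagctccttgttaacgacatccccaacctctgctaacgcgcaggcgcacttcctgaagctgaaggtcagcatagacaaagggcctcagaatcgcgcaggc
NDUFS6: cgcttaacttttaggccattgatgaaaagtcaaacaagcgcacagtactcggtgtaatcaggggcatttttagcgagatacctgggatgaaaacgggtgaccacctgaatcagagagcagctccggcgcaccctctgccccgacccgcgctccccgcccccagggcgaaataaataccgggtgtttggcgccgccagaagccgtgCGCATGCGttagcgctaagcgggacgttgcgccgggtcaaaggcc
SDHD: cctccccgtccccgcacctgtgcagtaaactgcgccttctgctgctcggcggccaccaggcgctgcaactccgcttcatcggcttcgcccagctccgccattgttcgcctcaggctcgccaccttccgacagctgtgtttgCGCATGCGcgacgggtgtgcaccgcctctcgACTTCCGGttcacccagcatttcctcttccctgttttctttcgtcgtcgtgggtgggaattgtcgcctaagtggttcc

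The NRF1 word was present before NDUFB4, NDUFS6 and SDHD, the ETS word before SDHD only among the 5, and neither word was in the windows of NDUFB6 and ATP5MC1. Of the 78 subunit genes 64 had a promoter entry. The NRF1 word was in 10 of these 64 (15.6%) and in 583 of 27305 genes with an entry (2.14%). The ETS word, on either strand, was in 12 of the 64 (18.8%) and in 1127 of the 27305 (4.13%). Neither word contains the other. A match is a description of the letters in this window.

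Each knockdown library held 20.6 to 32.5 M counts, and each inhibitor library 29.5 to 50.9 M. The 78 subunit genes together took between 0.952% and 1.8% of a library's counts. The C4-2 inhibitor libraries, which include the highest share, held no counts under mtDNA gene symbols. Such genes took 2.893% to 7.465% of the counts in the other libraries, so the C4-2 inhibitor shares rest on a different total. COPS5, the target, checked the labels of the knockdown: it had 53.2 to 54.1 CPM in LNCaP scramble against 1.79 to 2.83 in LNCaP shCSN5, 118 to 129 against 10.3 to 10.4 in C4-2, 99.1 to 111 against 16.8 to 17.6 in 22Rv1, and 102 to 113 against 12 to 12.9 in PC3. The summed level of 8 luminal prostate markers was 1280 to 7600 CPM in the groups of LNCaP, C4-2 and 22Rv1 and 120 to 430 CPM in those of PC3. Summed markers of fibroblasts and of leukocytes reached at most 58.5 and 48.9 CPM in any library. Nothing in the labels says that the 2 libraries of a group came from separate cultures, so each p-value reflects the spread between 2 libraries, and that spread may be technical. In bulk RNA, fewer cells of a type and less RNA per cell cannot be told apart.

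The pairs of libraries differed from each other by GC content in most groups. The longest transcripts (GENCODE v29) of the 78 genes ran from 35% to 69.6% GC, with a median of 47.6%. In PC3 scramble the log2 ratio of replicate 1 over replicate 2 fell with the members' GC content (Pearson r = -0.786 across 76 genes of 1 library pair, a description with no test). The same r was -0.781 in PC3 shCSN5, -0.7 in LNCaP shCSN5 and 0.767 in 22Rv1 CSN5i-3, but 0.2 in LNCaP scramble, 0.221 in PC3 DMSO and -0.369 in PC3 CSN5i-3. NDUFS7, a core complex I subunit, had the widest gap in LNCaP shCSN5, with 7.04 CPM in 1 library and 34.4 CPM in the other. The median gap (log2) was 0.0296 in PC3 DMSO, 0.0337 in LNCaP scramble and 0.0362 in PC3 CSN5i-3, against 0.292 in LNCaP shCSN5. A fit with a per-library GC trend as offset was added after these gaps were seen, and its counts are given where they differ. It was run within each treatment comparison only. The average over lines, the differences between lines or experiments, and the comparisons between controls of 2 lines were not run with it.

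**Figure D1:**
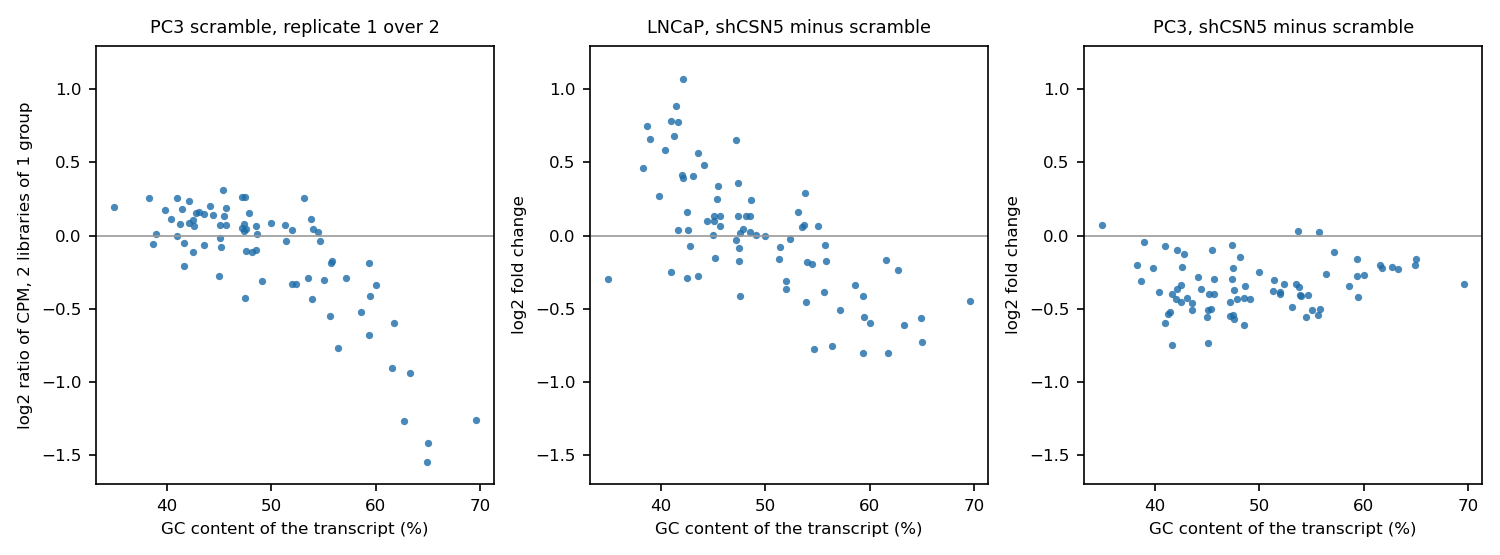
GC content of each subunit gene's transcript (%) against the log2 ratio of the 2 PC3 scramble libraries (left) and against the log2 fold change with shCSN5 in LNCaP (middle) and in PC3 (right), with 1 point per gene. The left and middle panels slope down with GC (r = -0.786 and -0.708), and the right panel lies below 0 across the GC range (r = 0.133).

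In PC3 both treatments lowered many of these genes and the knockdown raised none. With shCSN5 the 78 subunit genes went from 1.3% to 1.32% of the counts in scramble to 1.08% in both knockdown libraries. By edgeR's quasi-likelihood test with an adjusted p under 0.05, 27 of 78 fell and 0 rose, where 6.41% of all tested genes were called lower and 10.3% higher. The median log2 fold change was -0.37 over the 78 genes and 0.04 over all genes, and 75 of the 78 values were negative. Complex V had 10 of 17 genes lower, complex IV 6 of 11, complex I 9 of 37, complex III 1 of 9 and complex II 1 of 4.

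The lowest value of any subunit gene in the PC3 knockdown was that of NDUFB6, an accessory subunit of the complex I membrane arm. It had 59.9 and 63.7 CPM in scramble and 37.5 and 36.0 with shCSN5, a log2 fold change of -0.75 (SE 0.11, edgeR adjusted p = 0.0151). NDUFS5, another accessory subunit, fell by 0.61 on the log2 scale, from 259 and 254 to 172 and 163 CPM. In both genes each knockdown library lay below each scramble library.

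UQCRFS1, the Rieske iron-sulfur protein of complex III, had 100 and 97.6 CPM in scramble and 60.9 and 58.0 with shCSN5, a fall by 0.73 (SE 0.096, edgeR adjusted p = 0.0126). Of the complex II genes only SDHB, the iron-sulfur subunit, was called, with 188 and 191 against 149 and 149 CPM. SDHA, the flavoprotein, had 180 and 228 against 136 and 152 CPM (edgeR adjusted p = 0.0629), so its scramble libraries were further apart than its shCSN5 libraries.

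In complex IV, COX7B fell from 323 and 292 to 223 and 205 CPM and COX6B1 from 161 and 186 to 120 and 125 CPM. Both are small nuclear subunits around the mtDNA-encoded core. COX7C, of the same kind, stayed at 518 and 529 against 507 and 507 CPM (edgeR adjusted p = 0.737). In complex V the c-ring gene ATP5MC3 had 332 and 342 CPM in scramble and 222 and 223 with shCSN5, a log2 fold change of -0.60 (SE 0.086, edgeR adjusted p = 0.0149). ATP5MC1 codes for the same mature c subunit and fell by 0.41, whereas ATP5MC2, the remaining c-ring gene, had -0.11 (edgeR adjusted p = 0.603). ATP5MF, a membrane accessory subunit, fell from 185 and 187 to 128 and 125 CPM. The catalytic head genes ATP5F1A and ATP5F1B were both lower, ATP5F1A with 691 and 675 against 538 and 499 CPM. ATP5IF1 had 59.1 and 63.6 against 59.6 and 59.3 CPM and was not called.

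The number of genes that passed in the PC3 knockdown depended on single libraries. The count was 1 without shCSN5 replicate 1 and 0 without shCSN5 replicate 2 (edgeR, where one arm then has a single library assumed to vary like the other group), 46 without scramble replicate 1, and 42 without scramble replicate 2, of which 39 were lower and 3 higher. For shCSN5 replicate 2 a further label names a drug-treated cell, against its title and description, which were followed, and COPS5 was low in both shCSN5 libraries. With total counts in place of TMM scaling 10 genes were lower, with the replicate number as a block 60, and with the GC offset 61, and each of these 3 fits called 0 higher. Over all 11 settings, between 66 and 77 of the 78 values were negative and the members' median lay between -0.42 and -0.29. Over all genes the split of calls moved with the scaling, from 1586 higher and 992 lower to 1969 and 702 with total counts, 1104 and 1169 with DESeq2, and 3798 and 3809 with the GC offset.

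With CSN5i-3 at 10 µM in PC3, 68 of the 78 genes fell and 4 rose (edgeR), and the share of counts went from 1.31% to 1.33% in DMSO to 0.952% to 0.954%. Calls were dense in this comparison, since 38.5% of all genes were called lower and 38.5% higher. The median was -0.41 over the members and -0.01 over all genes. Complex I had 35 of 37 genes lower, complex II 2 of 4, complex III 7 of 9, complex IV 10 of 11 and complex V 14 of 17. The number called lay between 68 and 74 under every alternative run, the leave-one-out fits included. The 8 luminal markers, of which KLK2 was at 0 in every PC3 library, summed to 422 to 430 CPM in DMSO and 120 to 124 CPM with CSN5i-3. The 5 fibroblast markers summed to 55.5 to 58.5 and 14.3 to 14.8 CPM. Most of the luminal sum was HOXB13, with 376 to 382 and 92.3 to 98.4 CPM. Most of the fibroblast sum was COL1A1, with 53.5 to 57.1 and 14 to 14.4 CPM. The part of these markers in the members' values was not tested.

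Complex I held the largest fall among the subunit genes. NDUFS6, an accessory subunit near the NADH-oxidising arm, had 83.0 and 84.9 CPM in DMSO and 39.2 and 38.2 with CSN5i-3, a log2 fold change of -1.12 (SE 0.039, edgeR adjusted p = 1.5e-33). NDUFB3, of the membrane arm, fell from 55.9 and 59.2 to 27.2 and 29.6 CPM. The core subunit NDUFV1, which binds the flavin that accepts electrons from NADH, fell from 195 and 193 to 99.4 and 106 CPM. Only NDUFS4 and NDUFA7 rose in complex I. NDUFS4 had 30.3 and 30.6 against 36.5 and 36.9 CPM, a log2 fold change of 0.27 that was 0.07 and no longer called with the GC offset. NDUFA7 had 10.1 and 9.70 against 12.8 and 12.7 CPM (log2 fold change 0.37). In LNCaP its mean was 8.52 CPM in scramble and 157 CPM in DMSO, from separate tables. Its low level in PC3 may therefore rest on part of its reads.

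The 4 complex II genes did not move together. SDHA went from 191 and 185 to 94.9 and 99.9 CPM, a fall by 0.95 (SE 0.030, edgeR adjusted p = 3.0e-35), and SDHC, a membrane anchor, from 92.5 and 94.1 to 51.1 and 49.7 CPM. SDHD, the other membrane anchor, rose from 57.0 and 60.8 to 78.5 and 78.8 CPM, a log2 fold change of 0.42 (SE 0.037, edgeR adjusted p = 1.8e-15). This rise was 0.15 with the GC offset and was still called. SDHB had 184 and 180 against 180 and 176 CPM (edgeR adjusted p = 0.283). The products of SDHC and SDHD form 1 heterodimer in the membrane, and their RNAs moved in opposite directions here.

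Complex III split in a similar way. UQCRQ fell from 193 and 203 to 122 and 118 CPM and UQCRC1, a core subunit, from 517 and 514 to 353 and 361 CPM. UQCRH, the hinge protein, rose from 185 and 194 to 224 and 223 CPM (log2 fold change 0.24), and UQCRC2, the other core subunit, stayed at 89.4 and 91.6 against 90.1 and 91.3 CPM.

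In complex IV, COX7A2 went from 186 and 186 to 99.1 and 99.7 CPM, a fall by 0.90, and COX6C from 323 and 328 to 205 and 189 CPM. COX7B fell by 0.10 only, from 206 and 207 to 192 and 193 CPM. COX4I1 fell by 0.39. In complex V the peripheral stalk gene ATP5PF had 175 and 182 CPM in DMSO and 88.6 and 82.7 with CSN5i-3, a log2 fold change of -1.06 (SE 0.032, edgeR adjusted p = 1.1e-36). The catalytic β subunit gene ATP5F1B fell from 1087 and 1090 to 604 and 616 CPM. The c-ring genes fell by unequal amounts, ATP5MC3 by 0.96, ATP5MC1 by 0.67 and ATP5MC2 by 0.11. ATP5IF1 fell from 71.4 and 74.9 to 57.0 and 56.7 CPM.

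**Figure D2:**
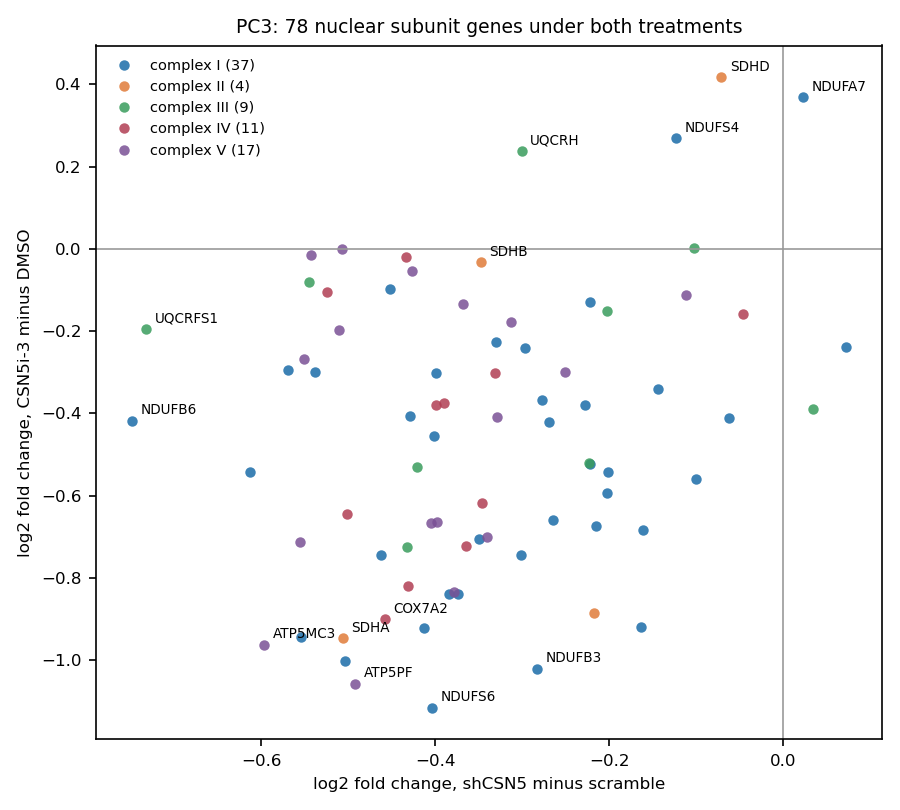
Log2 fold change in PC3 with shCSN5 (horizontal) and with CSN5i-3 (vertical) for 78 subunit genes, coloured by complex, 1 point per gene. Most points lie in the lower left part (71 of 78), and SDHD, NDUFS4, UQCRH and NDUFA7 lie above the horizontal zero line.

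Setting the 2 PC3 experiments side by side, 71 of 78 genes were negative in both, 1 was positive in both and 6 had opposite signs, and 23 (29.5%) were called lower in both. Of the 15034 genes of any kind tested in both, 728 (4.84%) were called lower in both. Within the 78, nearly all values were negative in each experiment and most genes were called lower with CSN5i-3. The overlaps among the members therefore follow largely from the separate counts and do not show agreement gene by gene. The experiments have separate controls. The sizes did not follow each other closely, with Pearson r = 0.245 and Spearman rho = 0.18 across the 78 genes, a description since genes are not independent replicates. A test of the difference between the 2 effects (edgeR interaction) called 14 genes higher and 15 lower with the inhibitor than with the knockdown, where 20.5% and 18.6% of all genes were called. NDUFS6 was 0.65 further down with the inhibitor (SE 0.19, edgeR adjusted p = 0.0302), NDUFB3 0.67 and SDHC 0.60 further down, as log2 differences of -0.65, -0.67 and -0.60. UQCRFS1 and UQCRH each had a difference of 0.61 in the other direction. With total counts the split was 7 higher and 22 lower, and that scaling shifted all genes by a median of -0.143. With the replicate block 57 genes were called. The count was 44 without scramble replicate 2, 15 and 16 without shCSN5 replicate 1 or 2, 13 and 11 without DMSO replicate 1 or 2, and 12 and 11 without CSN5i-3 replicate 1 or 2.

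The PC3 calls were also counted by promoter word. With CSN5i-3, 7 of the 10 members with the NRF1 word and 47 of the 54 without it were lower, and for the ETS word 10 of 12 and 44 of 52. With shCSN5 the counts were 2 of 10 and 17 of 54 for the NRF1 word, and 4 of 12 and 15 of 52 for the ETS word. Both SDHD, which rose with CSN5i-3, and NDUFS6, which fell the furthest, carry the NRF1 word in the windows printed above.

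In LNCaP the knockdown moved members in both directions. With shCSN5, 10 of 78 genes rose and 7 fell, close to or under the 18.3% and 17.4% of all genes called higher and lower. The median was 0.01 over the members and -0.01 over all genes. COX6C had 89.2 and 91.9 CPM in scramble and 207 and 174 with shCSN5, a log2 fold change of 1.07 (SE 0.14, edgeR adjusted p = 0.00273). COX7B rose from 84.3 and 85 to 179 and 134 CPM, NDUFB4 from 466 and 452 to 715 and 858 CPM, and SDHD from 56.3 and 58.7 to 111 and 87.2 CPM. ATP5F1E, the ε subunit of the central stalk, rose from 165 and 162 to 272 and 278 CPM. All 4 libraries of each of these genes kept the groups apart, with the spread larger among the shCSN5 libraries.

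On the lower side in LNCaP, NDUFB10 had 278 and 281 against 158 and 163 CPM (log2 fold change -0.80, SE 0.11, edgeR adjusted p = 0.00358). CYC1, which carries the c-type haem of complex III, had 399 and 391 against 184 and 268 CPM, and UQCRC1 460 and 460 against 290 and 336 CPM. ATP5MC1 fell from 230 and 244 to 157 and 120 CPM and ATP5MC2 from 436 and 445 to 322 and 298 CPM. ATP5IF1 fell by 0.40.

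Across the 78 genes the LNCaP knockdown values followed GC content (r = -0.708), with low-GC genes higher and high-GC genes lower. With the GC offset 16 genes were higher and 17 lower. COX6C (0.87), COX7B (0.70), NDUFB4 (0.61), SDHD (0.63), NDUFB10 (-0.57), CYC1 (-0.45) and ATP5MC1 (-0.92) were still called in that fit, and NDUFB11 (-0.34 against -0.60 without the offset) was not. The count also rested on single libraries: 1 gene passed without scramble replicate 1 and 1 without scramble replicate 2, but 65 and 69 without shCSN5 replicate 1 or 2.

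CSN5i-3 at 5 µM in LNCaP gave 3 genes higher and 24 lower, where 26.2% and 26.5% of all genes were called. The members' median was -0.09 against 0.00 over all genes, and their share of counts went from 1.49% to 1.51% in DMSO to 1.24% to 1.26%. Complex V had 8 of 17 genes lower and complex I 11 of 37. ATP5MC1 fell from 176 and 165 to 99.7 and 98.3 CPM, a log2 fold change of -0.78 (SE 0.066, edgeR adjusted p = 8.4e-05). ATP5F1B went from 1935 and 1862 to 1310 and 1305 CPM and ATP5F1A from 958 and 928 to 678 and 691 CPM, so both catalytic head genes fell. All 3 c-ring genes fell. In complex I, NDUFB10 fell from 233 and 253 to 170 and 164 CPM, NDUFB6 from 51.9 and 53.3 to 37.2 and 35.8 CPM, and NDUFS1, a core subunit of the NADH-binding arm, from 163 and 154 to 112 and 119 CPM. NDUFB4, which rose with the knockdown, fell here from 345 and 354 to 285 and 274 CPM.

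In complex III of LNCaP with CSN5i-3, CYC1 fell from 263 and 300 to 214 and 208 CPM, and UQCRC2 and UQCRFS1 fell by 0.35 and 0.33. COX6C rose from 105 and 96.0 to 136 and 140 CPM (log2 fold change 0.46, SE 0.071, edgeR adjusted p = 0.00145), COX7A2 from 245 and 218 to 287 and 283 CPM, and NDUFA13 from 200 and 250 to 300 and 291 CPM. COX7B2 was near the limit of the table, with 1.6 and 1.17 against 0.603 and 0.641 CPM. No complex II gene was called. The count was 47 and 53 without DMSO replicate 1 or 2, and 13 and 14 without CSN5i-3 replicate 1 or 2, where NDUFA13 and COX7A2 lost their calls. With the GC offset it was 15 higher and 33 lower. The summed luminal markers moved with this treatment, from 5820 to 5850 CPM in DMSO to 1420 to 1430 CPM. Of 5 leukocyte markers 2 are listed in this table: CD68, a lysosomal protein of macrophages and other cells, had 0.292 to 0.369 CPM in DMSO and 23.7 to 24 with CSN5i-3, and CD14 had 0 and 0.251 CPM. The part of either in these values was not tested.

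The LNCaP inhibitor and knockdown effects differed for 17 genes, all lower with the inhibitor than with the knockdown and 0 higher (edgeR interaction, 13.8% and 7.58% of all genes). NDUFB4 had a log2 difference of -1.16, from a rise by 0.78 with shCSN5 to a fall by 0.32 with CSN5i-3. ATP5F1C, the γ subunit of the central stalk, had a difference of -1, SDHD -0.92 and NDUFS1 -0.92. NDUFB4, ATP5F1C, SDHD and NDUFS1 had 41.7%, 43.6%, 41% and 42.1% GC, under the members' median of 47.6%. The knockdown values followed GC content across the members (r = -0.708), and the inhibitor values did so less (r = 0.131). No GC offset was run for this difference, and the part of GC content in it was not tested. Across the 78 genes the 2 effects had opposite signs in 38, with Pearson r = 0.157. The count was 4 and 7 without scramble replicate 1 or 2, 29 and 55 without shCSN5 replicate 1 or 2, 10 without DMSO replicate 1, and 4 without either CSN5i-3 library.

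In C4-2 the knockdown raised 6 subunit genes and lowered 2, against 15.7% and 16.2% of all genes, and the median was 0.07 over the members and -0.02 over all genes. The share of counts went from 1.58% to 1.59% in scramble to 1.69% to 1.71%. NDUFB4 had 453 and 456 CPM in scramble and 756 and 747 with shCSN5, a log2 fold change of 0.73 (SE 0.083, edgeR adjusted p = 0.000695). COX6C rose from 241 and 203 to 293 and 310 CPM, COX7C from 444 and 415 to 532 and 549 CPM, COX7A2 from 219 and 194 to 248 and 266 CPM, NDUFB2 from 90.7 and 97.1 to 126 and 122 CPM and NDUFA1 from 150 and 127 to 175 and 180 CPM. ATP5MC1 fell from 188 and 198 to 154 and 152 CPM and COX7B2 from 5.41 and 5.24 to 3.13 and 3.05 CPM. No gene of complex II or III was called. The count was 5 without scramble replicate 2, 3 and 2 without shCSN5 replicate 1 or 2, 4 with no filter, 2 with the replicate block and 28 (25 higher, 3 lower) with the GC offset.

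In 22Rv1, where COX7B2 did not pass the filter and was left untested, shCSN5 raised 5 of 77 genes and lowered 10, against 22.6% and 21.3% of all genes. The median was 0.02 over the members and 0.02 over all genes. NDUFB4 rose again, from 169 and 170 to 245 and 233 CPM (log2 fold change 0.50, SE 0.074, edgeR adjusted p = 0.000285), and ATP5F1E rose by 0.27. ATP5MF fell from 512 and 531 to 345 and 380 CPM and NDUFB6 from 108 and 115 to 88.3 and 83.0 CPM. COX7B fell by 0.27 in this line. NDUFA11 and NDUFA13 rose by 0.73 and 0.63 from low levels, 10.9 and 6.89 CPM and 7.66 and 5.30 CPM. Both are GC-rich (62.7% and 61.6%), and across the 77 genes the values rose with GC content (r = 0.39). The log2 ratio of the 2 scramble libraries also followed GC content (r = 0.767). With total counts the split was 13 higher and 7 lower. The count was 36 without scramble replicate 1, 3 without shCSN5 replicate 1, 5 with a spread shared over all lines, 41 with the replicate block and 40 (23 higher, 17 lower) with the GC offset.

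CSN5i-3 at 5 µM in 22Rv1 gave 1 gene higher and 1 lower of 77, against 11.8% and 12.2% of all genes. NDUFB6 fell from 84.9 and 90.4 to 61.4 and 55.5 CPM (log2 fold change -0.59, SE 0.15, edgeR adjusted p = 0.0321). NDUFB4 rose from 150 and 161 to 242 and 203 CPM (log2 fold change 0.52, SE 0.15, edgeR adjusted p = 0.0462). The share of counts was 1.46% in DMSO and 1.57% to 1.58% with CSN5i-3, and the median was 0.07 over the members and -0.04 over all genes. The count was 0 without DMSO replicate 2, 16 without CSN5i-3 replicate 1, 0 with the replicate block, 5 with no filter and 29 (25 higher, 4 lower) with the GC offset. The values followed GC content here (r = -0.615).

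The same dose gave different counts in LNCaP and 22Rv1, where the spread between libraries also differed. With CSN5i-3 the median gap between replicates (log2) was 0.0391 in LNCaP and 0.21 in 22Rv1, and 0.142 in DMSO of both lines. The difference itself was called for 12 genes, all lower in LNCaP, and for 0 in the other direction (edgeR interaction). Of all genes 10% and 5.55% were called lower and higher. This fit was not run with the GC offset, and the values followed GC content with r = 0.131 in LNCaP and -0.615 in 22Rv1. The part of spread and GC content was not tested. NDUFB4 had a difference of -0.88, ATP5F1B -0.81, ATP5F1C -0.75 and ATP5F1A -0.63 on the log2 scale. DESeq2 called 4 and the replicate block 0. The count was 3 and 6 without LNCaP DMSO replicate 1 or 2, 3 and 2 without LNCaP CSN5i-3 replicate 1 or 2, and 6 and 2 without 22Rv1 DMSO replicate 1 or 2. Within 22Rv1, the inhibitor and knockdown effects differed for 0 of 77 genes by edgeR (10 at an unadjusted p under 0.05), where 2.38% of all genes were called higher and 1.90% lower. DESeq2 also called 0, the fit with no filter 8, and 7 were called without CSN5i-3 replicate 1.

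The 4 lines did not share 1 response to shCSN5. The fit over all lines called 46 of 78 subunit genes as differing between lines, where 38.8% of all genes were called. COX6C had the widest range, with log2 fold changes of 1.07 in LNCaP, 0.44 in C4-2, 0.20 in 22Rv1 and -0.36 in PC3. NDUFB4 rose in LNCaP, C4-2 and 22Rv1 and had -0.40 in PC3 (edgeR adjusted p = 0.0813). COX7B rose in LNCaP and fell in 22Rv1 and PC3. COX6C, NDUFB4 and COX7B had 42.1%, 41.7% and 41.5% GC. The members' values followed GC content with r = -0.708 in LNCaP, -0.209 in C4-2, 0.39 in 22Rv1 and 0.133 in PC3. The fit over all lines was not run with the GC offset. LNCaP and PC3 share a table, and C4-2 and 22Rv1 another. The part of GC content or table in the differences was not tested. As an average over lines, 2 genes were higher, NDUFB4 (0.42) and COX7C (0.29), and 7 lower, against 19.5% and 14.7% of all genes. ATP5MC1 had the largest average fall, by 0.42 (SE 0.086, edgeR adjusted p = 0.00166), and it was negative in each line. The average called 2 genes with the replicate block, 5 without LNCaP scramble replicate 1, scramble replicate 2 or shCSN5 replicate 2, and 4 higher and 7 lower with total counts.

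**Figure D3:**
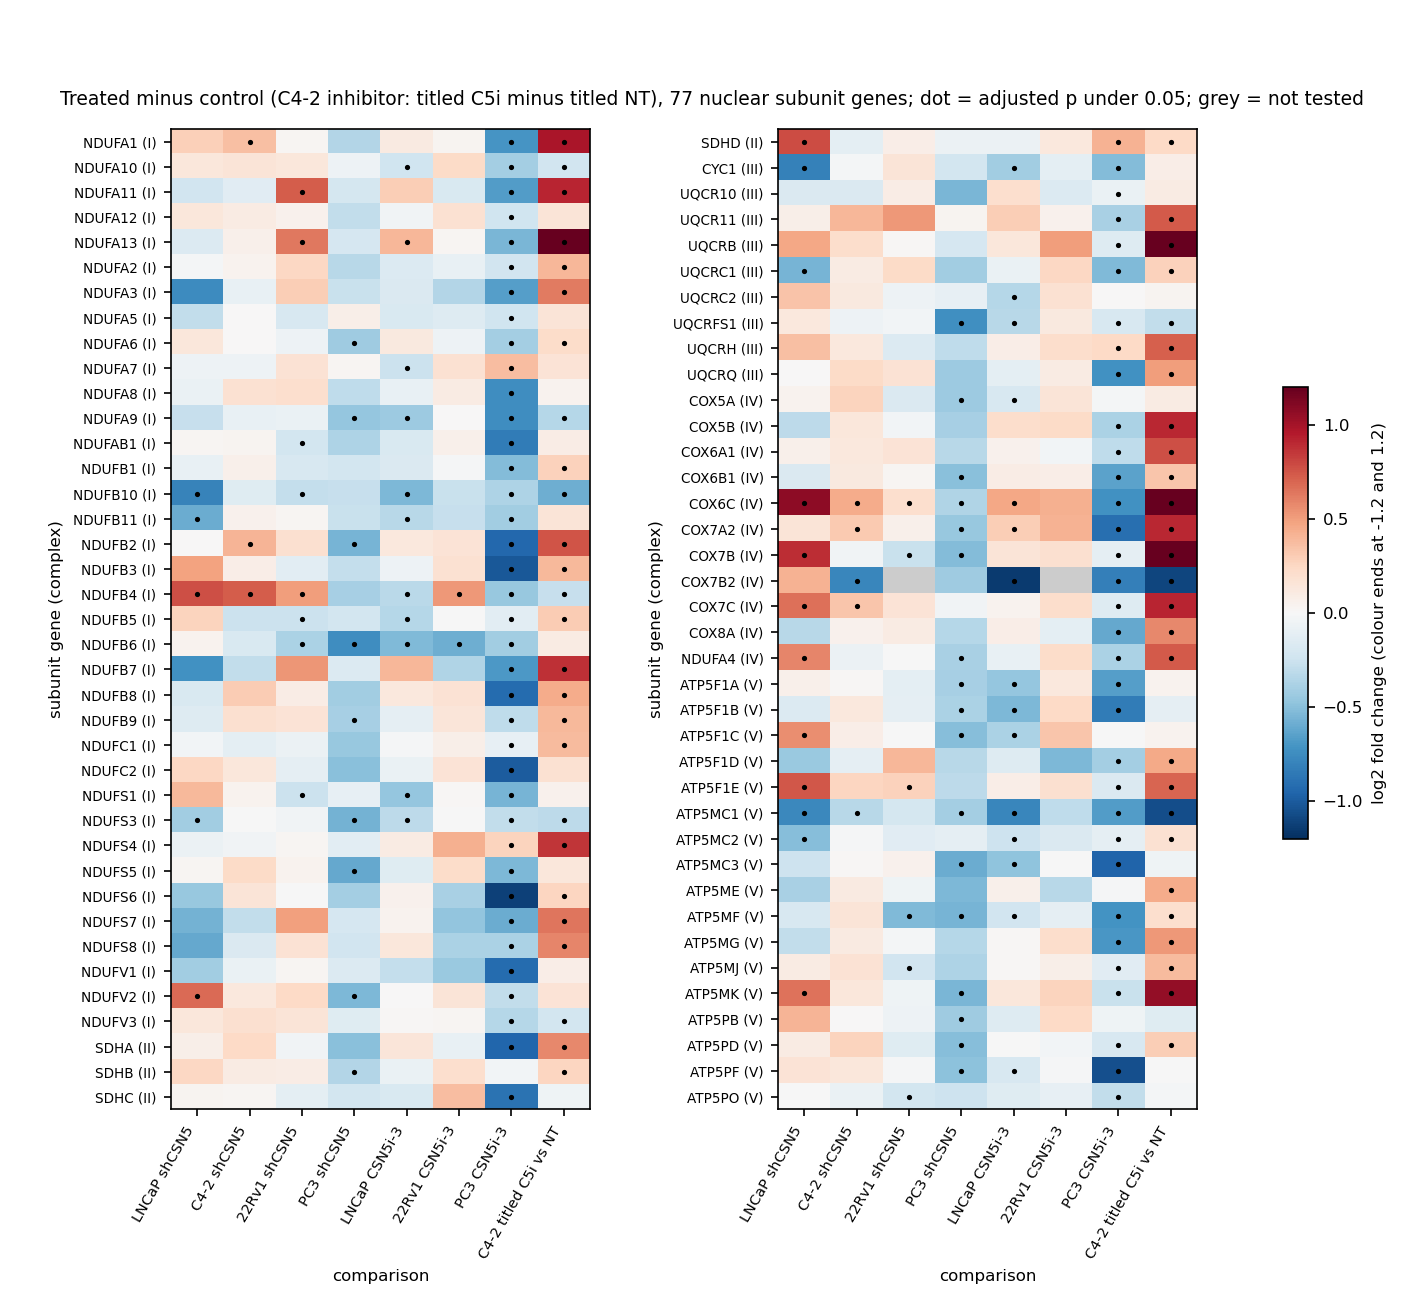
Log2 fold change of 77 subunit genes (rows, complex in brackets) in 8 comparisons (columns), treated minus control in 7 and titled C5i minus titled NT in the C4-2 titled column, with colour ending at -1.2 and 1.2, a dot for an edgeR adjusted p under 0.05 and grey for not tested. The PC3 columns are mostly blue (27 and 68 of all 78 subunit genes were lower), and ATP5MC1 is blue in all 8 columns.

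Over the 7 comparisons with an assigned treatment, 59 of the 78 genes were called lower at least once and never higher, 3 (NDUFS4, SDHD and UQCRH) higher and never lower, 15 in both directions and 1 (ATP5ME) in none. Of the 77 tested in all 7, 75.3% were in the first class and 3.9% in the second, against 31.1% and 32.8% of the 12341 genes of any kind tested in all 7. The comparison with the most members lower was PC3 with CSN5i-3 (68), where 38.5% of all genes were called lower. NDUFB6 and ATP5MC1 were lower in 5 of 7. ATP5MC1 was not called in 22Rv1, where it had -0.21 with shCSN5 and -0.31 with CSN5i-3. NDUFB6 was not called with shCSN5 in LNCaP (0.04) and C4-2 (-0.18). NDUFB4 and COX6C were higher in 4 of 7 and lower in the PC3 inhibitor comparison, and each was lower in 1 more, NDUFB4 in LNCaP with CSN5i-3 and COX6C in PC3 with shCSN5. SDHD was the only complex II gene called higher in any of the 7, in LNCaP with shCSN5 and in PC3 with CSN5i-3.

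**Figure D4:**
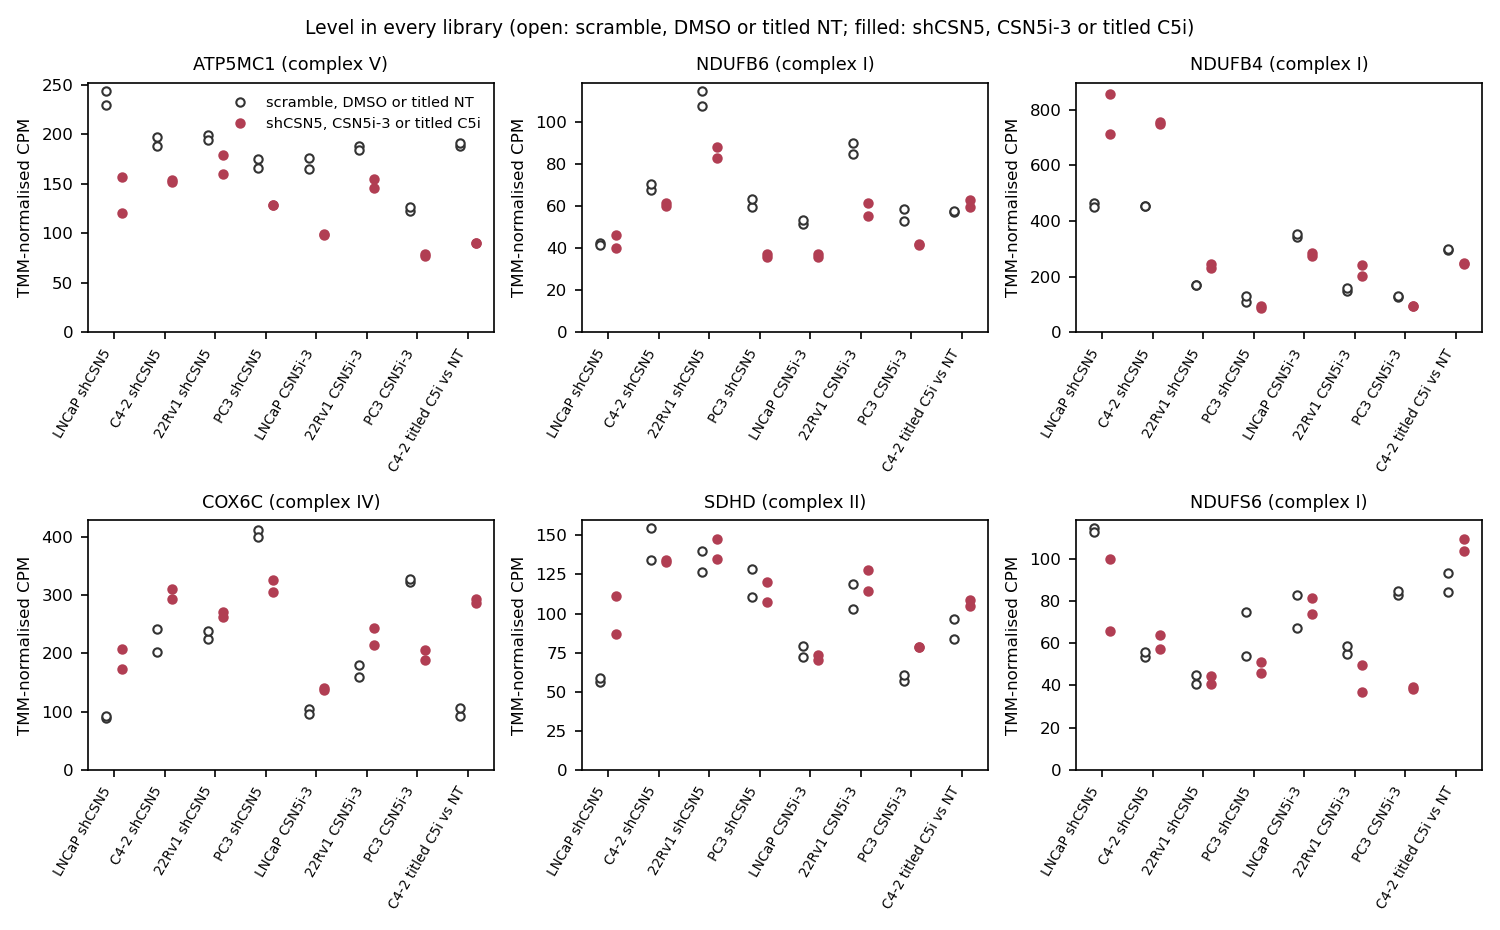
Level of 6 members in every library (TMM-normalised CPM, axis from 0), open points for scramble, DMSO or titled NT and filled points for shCSN5, CSN5i-3 or titled C5i, for the 8 comparisons on the horizontal axis. The filled points of ATP5MC1 lie below the open ones in each comparison, SDHD and NDUFS6 move apart in PC3 with CSN5i-3 (78.5 and 78.8 CPM against 39.2 and 38.2), and neither side of the C4-2 titled comparison is assigned a treatment.

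In the C4-2 inhibitor experiment the libraries titled C5i had 44 genes higher and 10 lower than those titled NT, against 37.0% and 38.0% of all genes, with a median of 0.26 over the members and -0.01 over all genes. Complex IV had 9 of 11 higher, complex I 18 of 37, complex V 9 of 17, complex III 5 of 9 and complex II 3 of 4. COX6C had 92.4 and 106 CPM in the libraries titled NT and 287 and 294 in those titled C5i, a log2 difference of 1.55 (SE 0.081, edgeR adjusted p = 1.9e-08). UQCRB had 101 and 111 against 289 and 278 CPM, COX7B 112 and 121 against 294 and 288 CPM, NDUFA13 181 and 148 against 388 and 417 CPM and ATP5MK 177 and 186 against 386 and 369 CPM. ATP5MC1 went the other way, with 189 and 191 in the libraries titled NT and 90.7 and 90.6 in those titled C5i, and so did COX7B2, with 6.71 and 6.65 against 3.24 and 2.96 CPM. COX4I1 had a difference of 0.93. With total counts, which shifted all genes by a median of -0.193, the split was 28 higher and 16 lower. The cytosolic ribosomal protein genes moved with these values, with 78 of 78 higher and a median of 0.91. The summed luminal markers were 5730 to 5790 CPM in the libraries titled NT and 1290 to 1310 in those titled C5i. KLK3 had the largest part of that change, with 2680 CPM in NT and 325 to 329 in C5i. TMPRSS2 alone went the other way, with 201 to 205 CPM in NT and 324 in C5i. Of the 2 leukocyte markers listed in that table, CD68 had 7.24 to 7.28 and 48.2 to 48.8 CPM, and CD14 0.157 to 0.205 and 0.136 to 0.218 CPM. Their part in the result was not tested.

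The 13 mtDNA-encoded subunits share the complexes with the nuclear genes, and their values are set beside the nuclear ones with no test between the 2 sets. With CSN5i-3 in LNCaP, 12 of 13 rose with a median of 0.66, while the nuclear median was -0.09 and 26.2% of all genes were called higher. MT-ND2, a complex I subunit, had 3222 and 3020 CPM in DMSO and 8042 and 8194 with CSN5i-3, a log2 fold change of 1.38 (SE 0.052, edgeR adjusted p = 2.0e-06). In C4-2 with shCSN5, 8 of 13 rose and 0 fell, with a median of 0.32 beside the nuclear 0.07. Of all genes 15.7% were called higher there and 16.2% lower. In PC3 with CSN5i-3, 4 rose and 8 fell, with a median of -0.26 beside the nuclear -0.41. Of all genes 38.5% were called higher there and 38.5% lower. MT-ND1, of complex I, went from 2514 and 2485 to 3342 and 3439 CPM, and MT-CO3, of complex IV, from 2265 and 2274 to 1185 and 1202 CPM. In PC3 with shCSN5, 0 of 13 were called in either direction, with a median of -0.03 beside the nuclear -0.37. Of all genes 10.3% were called higher there and 6.41% lower. In LNCaP with shCSN5 1 rose (median 0.18, nuclear 0.01), and in 22Rv1 with shCSN5 1 fell (median 0.00, nuclear 0.02). In 22Rv1 with CSN5i-3 1 rose (median 0.23, nuclear 0.07). The shares of all genes called in those directions were 18.3% in LNCaP with shCSN5, 21.3% in 22Rv1 with shCSN5 and 11.8% in 22Rv1 with CSN5i-3. The C4-2 inhibitor table holds no counts under mtDNA gene symbols, so these genes could not be tested there.

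**Figure D5:**
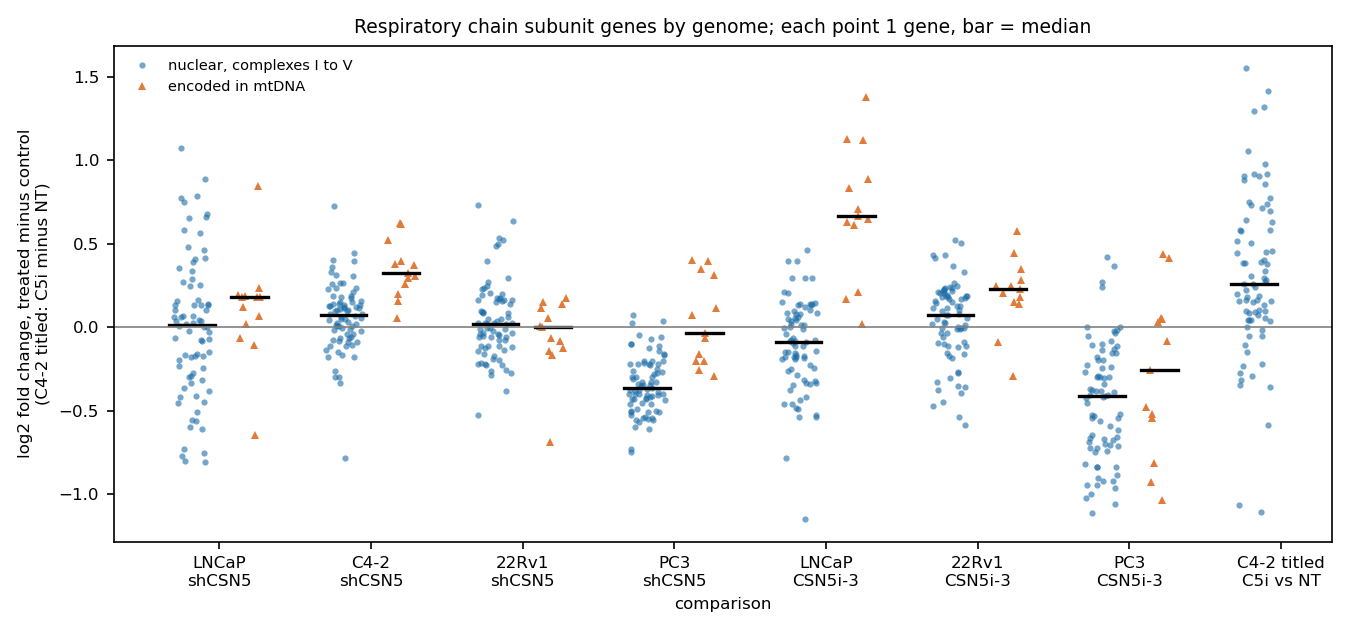
Log2 fold change, treated minus control (titled C5i minus titled NT in the C4-2 titled comparison), of nuclear subunit genes (circles) and of the 13 mtDNA-encoded subunits (triangles) in each comparison, 1 point per gene and a bar at the median. The medians lie apart in LNCaP with CSN5i-3 (-0.09 nuclear, 0.66 mtDNA) and in PC3 with shCSN5 (-0.37 and -0.03), and mtDNA genes are not drawn for C4-2 titled C5i.

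Of 45 assembly factors, which build the complexes but are not part of them, 8 rose and 31 fell in PC3 with CSN5i-3, and 6 rose and 12 fell in LNCaP with CSN5i-3. Of all genes, 38.5% were called higher and 38.5% lower in the former, and 26.2% and 26.5% in the latter. With shCSN5 the counts were 8 and 5 in LNCaP, 2 and 6 in C4-2, 4 and 12 in 22Rv1 and 1 and 1 in PC3, and with CSN5i-3 in 22Rv1 they were 0 and 3. The shares of all genes with shCSN5 were 18.3% and 17.4% in LNCaP, 15.7% and 16.2% in C4-2, and 22.6% and 21.3% in 22Rv1. They were 10.3% and 6.41% in PC3 with shCSN5, and 11.8% and 12.2% in 22Rv1 with CSN5i-3. Most of these counts were near or under the share of all genes. FOXRED1, a complex I assembly factor, fell in 6 of the 7 comparisons. It had 115 and 112 against 41.1 and 49.5 CPM in the LNCaP knockdown and 55.7 and 55.8 against 20.4 and 22.5 CPM in PC3 with CSN5i-3, and it was not called in PC3 with shCSN5 (log2 fold change -0.53, edgeR adjusted p = 0.115). NDUFAF6, also a complex I assembly factor, rose from 21.8 and 22.0 to 98.8 and 76.2 CPM in LNCaP and from 31.0 and 29.3 to 91.4 and 91.2 CPM in C4-2 with shCSN5. It also rose with CSN5i-3 in LNCaP (0.74) and PC3 (1.05), and had 36.3 and 32.2 against 35.6 and 32.1 CPM in PC3 with shCSN5.

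Among 19 regulators of mitochondrial biogenesis tested in PC3 with CSN5i-3, 8 rose and 9 fell. These counts are close to the share of all genes in that comparison, 38.5% called higher and 38.5% lower. MYC rose there from 95.0 and 94.2 to 203 and 212 CPM, while in LNCaP with CSN5i-3 it fell from 269 and 318 to 104 and 102 CPM. PPARGC1B, a coactivator of respiratory chain genes, fell in LNCaP and 22Rv1 with either treatment and in PC3 with CSN5i-3 (-0.57). In 22Rv1 with shCSN5 it went from 46.1 and 46.6 to 17.6 and 18.3 CPM. With shCSN5 in PC3, 1 of 19 rose and 1 fell, where 10.3% of all genes were called higher and 6.41% lower. Of 17 TCA cycle enzymes 1 rose and 4 fell in PC3 with shCSN5 and 4 rose and 12 fell with CSN5i-3.

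Other gene groups were counted beside the members in PC3. Of all genes, 10.3% were called higher and 6.41% lower with shCSN5, and 38.5% and 38.5% with CSN5i-3. With shCSN5, 13 of 19 glycolysis enzymes fell with a median of -0.75, and 17 of 37 proteasome subunits fell with a median of -0.46, none of either rising. Of 78 mitochondrial ribosomal proteins 9 fell and 0 rose (median -0.23), and of 76 cytosolic ribosomal proteins 0 were called (median -0.12). With CSN5i-3, 15 of 19 glycolysis enzymes fell and 3 rose (median -0.63). Of the proteasome subunits 28 fell and 6 rose (median -0.40), of the mitochondrial ribosomal proteins 49 fell and 15 rose (median -0.25), and of 76 cytosolic ribosomal proteins 45 rose and 20 fell. Their part in the members' values was not tested.

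Before treatment, PC3 and LNCaP already differed in these genes. In scramble libraries, which share a table, 21 of 78 were higher and 39 lower in PC3 than in LNCaP, against 41.6% and 38.2% of all genes, with a median of -0.38 over the members and 0.06 over all genes. COX6C was higher in PC3 by 2.08 (log2) and COX7B by 1.78, and NDUFB4 and NDUFB10 were lower by 2.01 and 1.85, as log2 differences of -2.01 and -1.85. Between 22Rv1 and C4-2, which share the other knockdown table, 14 genes were higher and 30 lower in 22Rv1, against 35.5% and 29.8% of all genes. With total counts that split was 18 and 22, and the scaling shifted all genes by a median of 0.108. NDUFB4 was 1.57 lower in 22Rv1, a log2 difference of -1.57. Each pair of lines was processed once, so line and culture cannot be told apart.

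Levels were not comparable between tables for some members. UQCR11 had a mean of 3.25 CPM in LNCaP scramble and 192 CPM in LNCaP DMSO, NDUFA7 8.52 and 157 CPM, and NDUFA13 14.4 and 233 CPM. Such gaps of over 4-fold between a line's 2 control groups were found for 4 genes in LNCaP, 5 in PC3 and 6 in C4-2 (against libraries titled NT), and for 0 in 22Rv1. The 5 in PC3 were ATP5F1D, NDUFA11, NDUFB7, NDUFS7 and NDUFS8, all higher in DMSO than in scramble. Their transcripts had 62.7% to 69.6% GC, beside a median of 47.6% over the members. The part of GC content in these gaps was not tested. The retrocopy UQCRHL, nearly identical to UQCRH, had 4.37 CPM in LNCaP scramble and 170 CPM in LNCaP DMSO, and 17 of the 19 kept pseudogenes reached 1 CPM only in the LNCaP inhibitor table. How reads shared by near-identical copies were counted is not given in the sources used here, so UQCRHL, ATP5MGL and the pseudogenes, and their parent genes in part, are uncertain. Fold changes within 1 table compare libraries of that table only. The interaction fits between experiments set the control of each table against its own treated libraries. Where the reads counted for a gene differ between tables, its 2 effects may cover different mixes of transcripts. The part of this in the interaction values was not tested.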

How the data were processed

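The authors deposited 6 tables of read counts per gene and library, made with Partek per the submitters' processing notes, which give no version. For the aligner, genome build, annotation and strand setting, the entry is: not given in the sources used here. Both tables of the LNCaP and C4-2 inhibitor experiments name genes by symbol alone and hold no gene below 3 counts. The members and lists were chosen with earlier results of these data known. Groups follow the descriptions, or the titles for C4-2 in the inhibitor experiment. A cell type label of PC3 shCSN5 replicate 2 (drug treated) goes against its title and description.

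Counts were tested in R 4.3.3 with edgeR 4.0.16 (TMM, a filterByExpr minimum of 10 counts, quasi-likelihood F test, Benjamini-Hochberg adjusted p under 0.05 over all genes of a comparison). The SE was taken as |log2 fold change| over the root of F. CPM are counts scaled by TMM library size within a comparison. Alternatives were DESeq2 1.42.0, total counts, no filter, the replicate number as a block, each library left out and, for the knockdown, a spread shared over lines. A crossed block and a GC offset (lowess of log2 count on GC content, span 0.3, genes with a mean count of at least 20) were added after seeing the data. The fits were tested on simulated data. The simulated libraries had no GC-dependent gaps, so that test cannot show how the fits behave with the gaps seen here. Replicate libraries differed by a chi-square per gene of 1.72 to 71.3.

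Named were, per comparison and complex, up to 2 called genes per direction with the largest change at a mean of at least 5 CPM and groups that do not overlap, the members called most often or in both directions, the 5 with the largest interaction, the SDH, c-ring and isoform genes, ATP5IF1 and, per surrounding list, up to 2 per direction by adjusted p. Genes named beyond this were chosen after their values were seen. Same-numbered libraries did not deviate together in every pair (correlation of deviations from -0.893 to 0.825 over the 8 pairs of groups), and the labels give no pairing, so the block is an alternative only. Levels are compared within a gene, not between genes. The values of 1 subunit gene are not reported here, and it stays within the counts and medians.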

Additional observations from a re-analysis of the deposited data

Results flagged for a closer look

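The shCSN5 effect differed between the 4 lines for 46 of the 78 subunit genes in the edgeR fit of line by treatment terms, which called 38.8% of all genes. The range between the highest and the lowest line was 1.451 (log2) for COX6C, 1.427 for COX7B, 1.229 for NDUFV2, 1.223 for ATP5MK and 1.185 for NDUFB4. In each of these 5 genes LNCaP had the highest value and PC3 the lowest. Their GC content was 41.3% to 47.2%, under the members' median of 47.6%. The shCSN5 values followed GC content in LNCaP (r = -0.708) and less in PC3 (r = 0.133). This fit was not run with the GC offset, and its lines lie in separate tables. The part of GC content or table was not tested.

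The CSN5i-3 effect at 5 µM differed between LNCaP and 22Rv1 for 12 genes by the interaction term, all lower in LNCaP, where 10% of all genes were called lower and 5.55% higher. DESeq2 called 4 and the replicate block 0. The log2 difference, LNCaP minus 22Rv1, was -0.8797 for NDUFB4, -0.8147 for ATP5F1B, -0.748 for ATP5F1C and -0.6281 for ATP5F1A. This fit was not run with the GC offset, and the 22Rv1 values followed GC content (r = -0.615). The part of GC content was not tested.

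The inhibitor and the knockdown differed within LNCaP for 17 genes, all lower with the inhibitor, where 13.8% of all genes were called lower and 7.58% higher. The log2 difference, inhibitor minus knockdown, was -1.63 for COX7B2, -1.159 for NDUFB4, -1 for ATP5F1C, -0.9237 for SDHD and -0.9179 for NDUFS1. COX7B2 was at 1.6 CPM or less in the inhibitor table. Each of the named genes had between 41% and 43.6% GC, under the members' median of 47.6%. The LNCaP knockdown values followed GC content (r = -0.708). No GC offset was run for this difference, and the part of GC content in it was not tested.

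Within PC3 the inhibitor and the knockdown differed for 29 genes, 14 higher and 15 lower with the inhibitor, against 20.5% and 18.6% of all genes. The difference was -0.6657 for NDUFB3, -0.6488 for NDUFS6, -0.6005 for SDHC, 0.6077 for UQCRFS1 and 0.6074 for UQCRH. The doses, times and tables of these experiments differ or are not given, and the cause was not tested.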

How the results depend on the processing

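Counts of called subunit genes (adjusted p under 0.05) that moved by over 1.5 times are given here, and the cause was not tested. With the replicate block, C4-2 shCSN5 had 2, 22Rv1 shCSN5 41, PC3 shCSN5 60, 22Rv1 CSN5i-3 0, the average shCSN5 effect 2, the LNCaP minus 22Rv1 difference 0 and the PC3 inhibitor minus knockdown difference 57, and the block moved no other count by that much. The replicate numbers share no stated pairing. The crossed replicate block, added after seeing the data, gave 20 in C4-2 shCSN5 and 47 in 22Rv1 CSN5i-3. The GC offset, also added then, gave 33 in LNCaP shCSN5, 28 in C4-2 shCSN5, 40 in 22Rv1 shCSN5, 61 in PC3 shCSN5, 48 in LNCaP CSN5i-3 and 29 in 22Rv1 CSN5i-3. With the shared spread there were 32 in LNCaP, 5 in 22Rv1 and 43 in PC3 with shCSN5. Total counts gave 10 in PC3 shCSN5. DESeq2 gave 4 for LNCaP minus 22Rv1. No filter gave 4 in C4-2 shCSN5, 5 in 22Rv1 CSN5i-3 and 8 for inhibitor minus knockdown in 22Rv1.

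With each library left out in turn, the counts ran from 1 to 69 in LNCaP shCSN5, 2 to 6 in C4-2 shCSN5, 3 to 36 in 22Rv1 shCSN5, 0 to 46 in PC3 shCSN5, 13 to 53 in LNCaP CSN5i-3, 0 to 16 in 22Rv1 CSN5i-3, 69 to 71 in PC3 CSN5i-3, 42 to 58 in titled C4-2, 5 to 10 for the average, 35 to 58 for differences between lines, 2 to 17 for LNCaP minus 22Rv1, 4 to 55, 0 to 7 and 11 to 44 for inhibitor minus knockdown in LNCaP, 22Rv1 and PC3, 50 to 74 for PC3 against LNCaP and 31 to 46 for 22Rv1 against C4-2.

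For 6 named genes a sign changed, with a call in at least 1 of the fits. In LNCaP shCSN5, with either shCSN5 or scramble library left out, COX6A1 ran from -0.1288 to 0.2371, COX7A2 from -0.1218 to 0.4036, SDHA from -0.06966 to 0.2071 and SDHC from -0.1158 to 0.1867, the lowest being without shCSN5 replicate 2 for COX6A1 and SDHA and without shCSN5 replicate 1 for COX7A2 and SDHC. SDHC had -0.1865 with the GC offset. COX8A in LNCaP CSN5i-3 ran from -0.1085 without DMSO replicate 1 to 0.2854 without DMSO replicate 2, and ATP5MC2 in titled C4-2 had -0.01146 with total counts. Over the alternatives, 1567 values of named members kept their sign and side of the threshold, 177 lost a call, 87 gained one and 7 reversed. With 2 libraries per group the precision of each count of calls is limited.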

Other observations

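DMAC2L, which the symbol form left among the members although it is no subunit, rose in LNCaP with shCSN5 by 0.90 on the log2 scale. Its mean was 21.7 CPM in scramble and 39.5 CPM with shCSN5. HIGD1A, a small inner membrane protein that binds complex IV, rose with shCSN5 in LNCaP (log2 fold change 1.01), C4-2 (0.51) and 22Rv1 (0.25), and with CSN5i-3 in LNCaP (0.24) and 22Rv1 (0.56), and fell with CSN5i-3 in PC3 (-0.31). COX7A2L, which links complexes III and IV in supercomplexes, rose with shCSN5 in C4-2 (0.32) and 22Rv1 (0.33) and with CSN5i-3 in PC3 (0.60), where its relative COX7A2 fell by 0.90. NDUFA4L2, a relative of NDUFA4 known for its induction in hypoxia, fell by 2.01 in LNCaP with shCSN5, where NDUFA4 rose from 230 and 228 to 383 and 302 CPM, and rose in PC3 with CSN5i-3 (0.81), where NDUFA4 fell by 0.38. These values are from the edgeR fits of each comparison and rest on the same 2 libraries per group.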
